A study of Arabidopsis thaliana with 42 samples.

Results

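The nitrate response of chl1-5 seedlings of Arabidopsis thaliana was examined with 3 RNA sequencing libraries from seedlings given KNO3 and 3 from seedlings given KCl. These are 6 of the 42 libraries of an experiment on the transcription factor NLP7 as a plant nitrate sensor, and were chosen by their titles (chl1-5 with N or K). chl1-5 is a mutant of CHL1, which encodes the nitrate transporter NRT1.1. Per the labels, whole seedlings were grown for 7 days under constant light with ammonium succinate as the sole nitrogen source. They were washed and then held for 20 min in basal medium with 10 mM KCl or 10 mM KNO3. Seedlings of wild type (Col-0) and of the septuple mutant nlp2,4,5,6,7,8,9, which lacks 7 of the 9 NLP genes, were grown and treated in the same way, with 3 libraries per salt. Mesophyll protoplasts of soil-grown wild type that expressed NLP7 transiently (2 libraries) and their control (2 libraries) served as a further readout. The titles abbreviate the salts to K and N. The treatment text names KCl and KNO3, and the letters were taken to stand for these. The labels do not say whether the replicates came from separate cultures, so p-values measure the spread between these libraries, which may be technical. The chl1-5 samples were described separately from the other seedlings in the labels, so genotype and any batch cannot be told apart, and comparisons between genotypes carry this limit.

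Nitrate acts in plants as a nutrient and as a signal that changes transcription within minutes. NRT1.1 takes up nitrate and also takes part in nitrate sensing at the plasma membrane, and NLP transcription factors drive the early transcriptional response in the nucleus. Among the genes known to respond fast are those that reduce nitrate to ammonium, those that supply the reducing power for this, and a set of transcription factors and signalling proteins.

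The 6 chl1-5 libraries held 24.3 to 32.7 M gene counts (M, megacounts) and 19709 to 21157 detected genes. A count of 0 in 1 of them allows up to 3 counts, or 0.0916 to 0.123 CPM (counts scaled to a library total of 1 M), for counting error only. Leaf and photosynthesis markers, such as RBCS1A and CAB1, summed to 63900 to 86100 CPM in them against 22900 to 86100 CPM over all 18 seedling libraries, and root markers summed to 3020 to 4840 CPM, so both kinds of marker were present, as the label of whole seedlings requires. Of 18 seedling libraries, the chl1-5 ones each had 17 to 62 genes at 0 counts that all other 17 libraries held at 10 counts or more. This number was 0 to 2 per wild-type library, and for the septuple mutant it was 71 in KCl library 3 and 0 or 1 in its other libraries. Its part in the results was not tested. Wild-type KNO3 library 1 stood apart, with alignments that were not unique at 170% of its gene counts and reads with no gene at 16.7%, against 14.5 to 50.7% and 0.815 to 4.23% in the other 17 seedling libraries. All 19 genes shared between chl1-5 and wild type stayed called in wild type without it.

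The mutated locus was examined first. The transcript of NRT1.1 (AT1G12110) was at 79.2, 68.9 and 59.6 CPM in the chl1-5 KCl libraries and at 69.5, 108.5 and 77.5 CPM in the KNO3 libraries, while the wild-type means were 490 and 870 CPM. NRT1.1 was thus lower in every chl1-5 library than the wild-type means, with a log2 difference in KCl of -2.82 (adjusted p = 1.07e-07, edgeR quasi-likelihood test). Its log2 fold change with nitrate in chl1-5 was 0.30 ± 0.23 (SE, adjusted p = 0.981), and its groups overlapped. The neighbour AT1G12100 had 0 counts in all 6 chl1-5 libraries and 0.946 and 1.13 CPM on average in wild type, with a log2 difference in KCl of -8.06 that depends on the prior count (adjusted p = 0.0206). ELP (AT1G12090), 2 loci before NRT1.1 and annotated as an extensin-like protein, averaged 923 and 1780 CPM in wild type and 1.79 CPM in chl1-5 in KCl, a log2 difference of -9.01 (adjusted p = 6.98e-08). On the other side, AT1G12120 did not show this pattern, with 18.1 to 23.6 CPM in chl1-5 and wild-type means of 24.1 and 19.1 CPM. The next locus, AT1G12130, had 0 counts in all 6 chl1-5 libraries, but its wild-type means were only 0.216 and 0.0814 CPM. Its difference in KCl was not called (adjusted p = 0.182, the same edgeR test).

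Nitrate changed few genes past the threshold in chl1-5, and almost all of them were higher. With an adjusted p under 0.05 in edgeR, which is what called means here unless DESeq2 is named, 26 of 21229 genes were called, 25 higher (0.118% of genes tested) and 1 lower (0.00471%). Without the adjustment, 1370 genes (6.45%) had a p under 0.05. All 3 KNO3 libraries lay above all 3 KCl libraries for 836 genes (3.94%) and below them for 724 (3.41%), and the median log2 fold change of all genes was 0. In wild type, the same test called 131 genes higher (0.617%) and 23 lower (0.108%), and in the septuple mutant it called 0, where 438 genes were under 0.05 before adjustment and the DESeq2 count was 4. The count in chl1-5 was 46 without KCl library 2, 15 without KNO3 library 2, and 18 to 28 without any 1 of the other 4. DESeq2 called 141 genes, 91 higher and 50 lower, among them all 26.

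Of the 26 genes, 19 were also called in wild type, all 19 higher in both genotypes. In each of the 19 the KNO3 libraries of chl1-5 lay above the KCl libraries without overlap, as they did for 3.94% of all genes. The median log2 fold change of the 19 was 1.46 in chl1-5, 0.08 in the septuple mutant and 2.7 in wild type. The chl1-5 and wild-type libraries chose these 19 genes. The medians there, and the separation of the salts in chl1-5, therefore only describe the 19. The septuple libraries entered the choice only through the filter, scaling and spread of the shared fit. The 19 genes hold enzymes of nitrate reduction and of its supply of reductant, transcriptional regulators, BTB-TAZ proteins, MAPKKK kinases and a cytokinin synthesis gene.

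**Figure D1:**
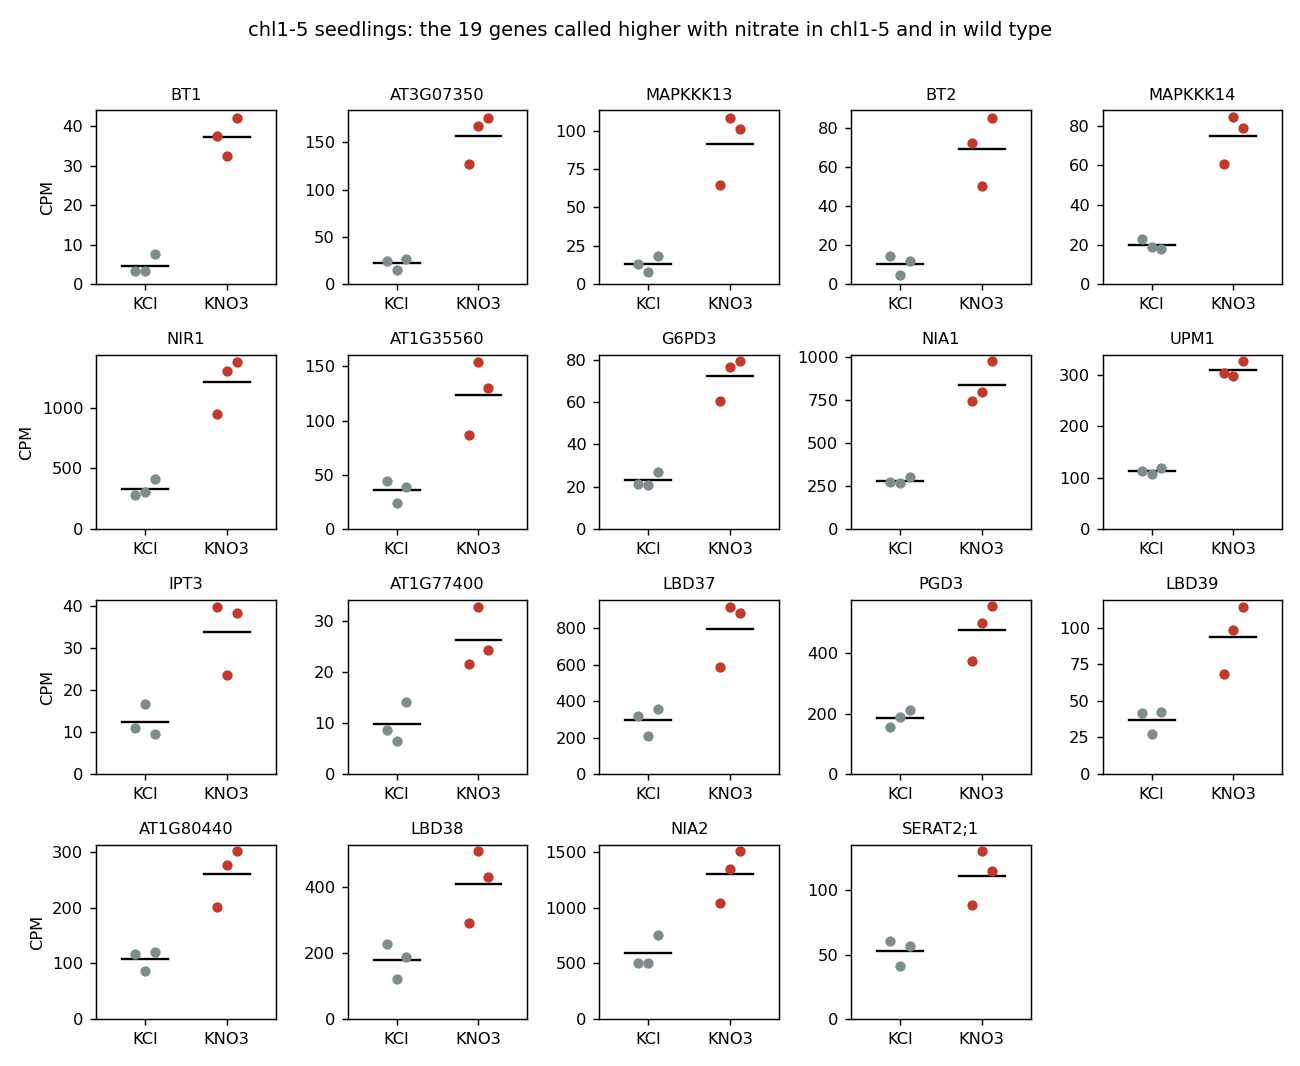
Normalised level (CPM, linear axes that start at 0) of the 19 genes in each chl1-5 library in KCl (grey) and KNO3 (red). Points are libraries and bars are means of 3, and in every panel the 3 KNO3 libraries lie above the 3 KCl libraries. The genes were chosen by their calls in these libraries and in wild type, which favours this separation.

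Of the 11 listed genes of nitrate and nitrite reduction, 4 rose: NIR1, NIA1, NIA2 and UPM1. NIR1 (AT2G15620), nitrite reductase, was at 284.7, 303.8 and 416.4 CPM in KCl and at 945.3, 1305.0 and 1377.0 CPM in KNO3. Every KNO3 library lay above all KCl libraries, and the log2 fold change was 1.85 ± 0.22 (adjusted p = 3.2e-05). NIA1 (AT1G77760), a nitrate reductase, was at 273.5, 266.3 and 302.3 CPM in KCl and at 743.3, 796.6 and 974.3 CPM in KNO3, a log2 fold change of 1.58 ± 0.22 (adjusted p = 0.000253). The other nitrate reductase gene, NIA2 (AT1G37130), was at 506.2, 499.9 and 757.1 CPM in KCl and at 1042.0, 1343.0 and 1511.0 CPM in KNO3, without overlap. Its log2 fold change was 1.14 ± 0.22 (adjusted p = 0.0184), and it missed the threshold without KCl library 1 or 2 or KNO3 library 2 or 3 (adjusted p between 0.0984 and 0.141). UPM1 (AT5G40850) makes a precursor of sirohaem, the cofactor of nitrite reductase. It was at 112.9, 107.3 and 118.8 CPM in KCl and at 303.5, 299.0 and 327.4 CPM in KNO3, the least relative spread among the 4 called genes of the list, with a log2 fold change of 1.46 ± 0.20 (adjusted p = 0.000253). The 7 genes of the list that were not called, SIRB and the molybdenum cofactor genes CNX1, CNX2, CNX3, CNX5, CNX6 and CNX7, had log2 fold changes between -0.26 (CNX2) and 0.73 (CNX7). The median of the list was 0.31.

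NLP proteins are known to bind a nitrate-responsive element, first described in promoters of nitrite reductase genes. Since the 19 genes moved together, the 250 bases before the annotated gene start were searched on both strands for the 5′ part of this element, spelled as TGACCCTT or TGACTCTT. A match was present in 477 of 27443 promoters (1.74%) and in 1 of the promoters of the 26 called genes, that of SERAT2;1 (AT1G55920, a serine acetyltransferase of cysteine synthesis), 131 bases before the gene start. The windows of SERAT2;1, of NIR1 and of AT3G07350, a gene with a large change in chl1-5, are given 5′ to 3′ from TAIR10.1 (RefSeq), all on the plus strand, at chr1:20911866-20912115, chr2:6810145-6810394 and chr3:2346936-2347185. Capitals mark the match, and no match says only that these letters are not in the window.
SERAT2;1: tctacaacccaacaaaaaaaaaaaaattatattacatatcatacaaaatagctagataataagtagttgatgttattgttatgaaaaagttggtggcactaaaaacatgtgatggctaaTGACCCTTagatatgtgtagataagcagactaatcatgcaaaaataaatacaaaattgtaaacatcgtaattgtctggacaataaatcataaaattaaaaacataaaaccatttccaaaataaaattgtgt
NIR1: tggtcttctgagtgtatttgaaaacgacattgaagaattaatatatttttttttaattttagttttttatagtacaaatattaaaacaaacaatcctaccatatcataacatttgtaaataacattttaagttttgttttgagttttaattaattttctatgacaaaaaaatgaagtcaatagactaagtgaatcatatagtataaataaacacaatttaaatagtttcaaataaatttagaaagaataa
AT3G07350: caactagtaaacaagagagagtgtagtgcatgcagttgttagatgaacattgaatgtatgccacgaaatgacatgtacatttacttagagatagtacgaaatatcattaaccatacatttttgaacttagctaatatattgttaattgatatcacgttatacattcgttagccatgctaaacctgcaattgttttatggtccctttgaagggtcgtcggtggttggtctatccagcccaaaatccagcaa

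Of 14 genes of reductant supply, edgeR called 2, both enzymes of the plastid oxidative pentose phosphate pathway. G6PD3 (AT1G24280), a glucose-6-phosphate dehydrogenase, was at 21.1, 21.1 and 27.0 CPM in KCl and at 60.6, 76.6 and 79.1 CPM in KNO3, a log2 fold change of 1.64 ± 0.23 (adjusted p = 0.000253). PGD3 (AT5G41670), a 6-phosphogluconate dehydrogenase, was at 155.0, 189.8 and 212.9 CPM in KCl and at 375.8, 502.3 and 556.9 CPM in KNO3, a log2 fold change of 1.36 ± 0.21 (adjusted p = 0.00103). Both genes had separate groups. G6PD2 was at 9.00 to 18.5 CPM in KCl and 32.3 to 32.9 CPM in KNO3, also without overlap, but its log2 fold change of 1.24 ± 0.27 missed the threshold (adjusted p = 0.0587). DESeq2 called G6PD2 as well (adjusted p = 0.00475), and so did edgeR without KCl library 2. With no filter beyond 1 count, edgeR called 4 genes of the list, with G6PD2 and the root ferredoxin reductase gene RFNR1 added. PGD1 likewise did not overlap and was not called, with a fitted change of 0.80 ± 0.22 on the log2 scale (adjusted p = 0.263). In wild type, 6 genes of this list were called. The other 4 were not called in chl1-5, where G6PD2 and PGD1 had the values above and the ferredoxin genes and reductases among them, RFNR2 and FD3, had log2 fold changes of 0.42 and 0.59 with overlapping groups. The list median was 0.45 in chl1-5 and 1.06 in wild type, against all-gene medians of 0 and -0.07.

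Among nitrate-responsive repressors, LBD37, LBD38 and LBD39, transcription factors known to repress nitrogen-responsive genes, were called. LBD37 (AT5G67420) was at 319.4, 211.1 and 355.1 CPM in KCl and at 585.6, 920.4 and 886.4 CPM in KNO3, a log2 fold change of 1.43 ± 0.25 (adjusted p = 0.00691). LBD38 (AT3G49940) was at 227.7, 120.0 and 187.0 CPM in KCl and at 289.1, 506.2 and 430.2 CPM in KNO3, a fitted change of 1.2 ± 0.24 on the log2 scale (adjusted p = 0.0297). In both genes KCl library 2 was the lowest library and KNO3 library 1 the lowest of the KNO3 libraries. LBD39 (AT4G37540) had 27.0 to 42.2 CPM in KCl and 68.3 to 114.4 CPM in KNO3, a log2 fold change of 1.35 ± 0.26 (adjusted p = 0.0184). These calls were less stable than those of NIR1 or G6PD3. LBD37 missed the threshold without KNO3 library 2 or 3 (adjusted p between 0.0504 and 0.0624), LBD39 also without KCl library 2 (0.0906 to 0.138 over the 3 libraries), and LBD38 also without KCl library 2 or 3 (0.105 to 0.278 over the 4 libraries). The G2-like repressors HHO2 (log2 fold change 0.98 ± 0.25, adjusted p = 0.204) and HHO3 (0.74 ± 0.20, adjusted p = 0.258), both called in wild type, did not overlap between the salts in chl1-5 and were not called by edgeR. DESeq2 called both (adjusted p = 0.045 and 0.0467), as did edgeR without KCl library 1, and with no filter beyond 1 count edgeR called HHO2. Of the 10 genes of the list, 6 had KNO3 libraries above all KCl libraries (3.94% of all genes did), and the list median of 1.07 was the highest of the 21 lists.

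**Figure D2:**
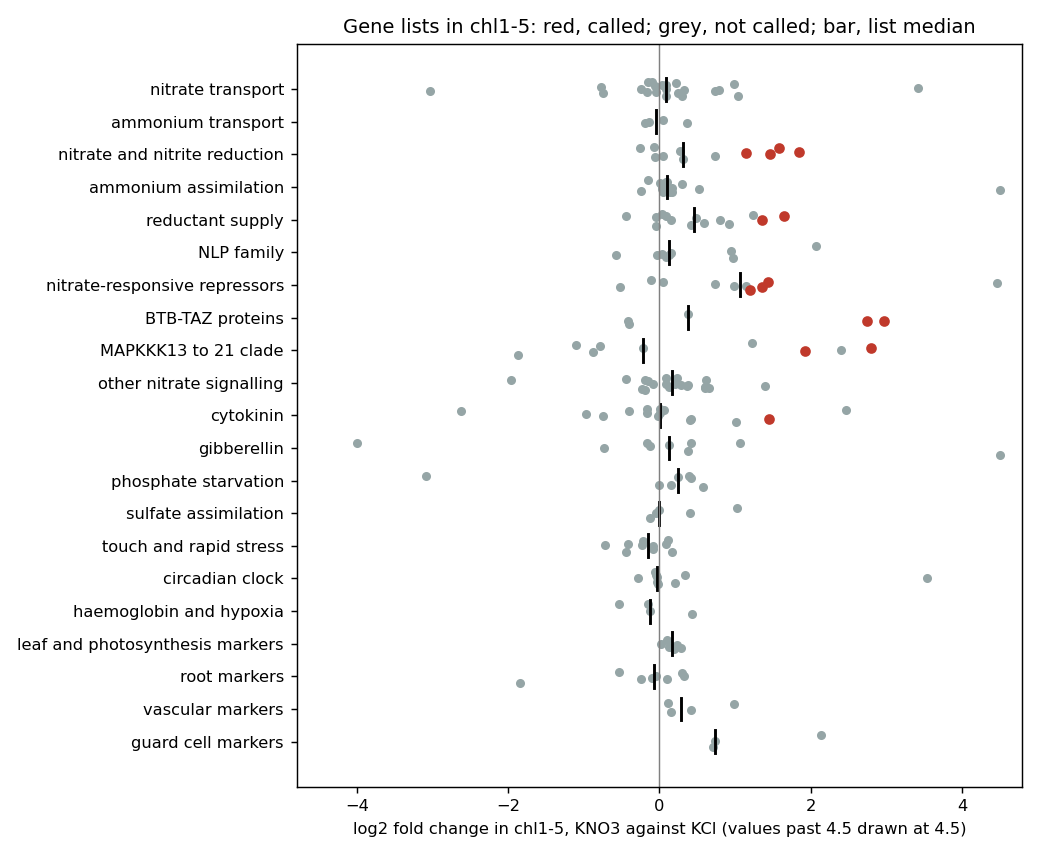
Log2 fold change (KNO3 against KCl) in chl1-5 of each tested member of 21 gene lists, with called genes in red, other genes in grey and the list median as a black bar. The called genes stand in 6 lists, and no list holds a gene called lower.

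The largest changes among the 19 genes were in BTB-TAZ scaffold proteins, MAPKKK kinases and AT3G07350. AT3G07350, a protein with a domain of unknown function (DUF506), was at 24.9, 15.4 and 26.4 CPM in KCl and at 126.8, 167.5 and 175.5 CPM in KNO3. With a log2 fold change of 2.82 ± 0.27 (adjusted p = 2.2e-06), it had the lowest p of all genes in chl1-5. BT1 (AT5G63160) was at 3.26, 3.28 and 7.73 CPM in KCl and at 37.5, 32.5 and 42.0 CPM in KNO3, a log2 fold change of 2.97 ± 0.33 (adjusted p = 1.07e-05). BT2 (AT3G48360), which is known to restrain nitrate uptake genes, was at 14.4, 4.57 and 12.1 CPM in KCl and at 72.5, 50.5 and 85.2 CPM in KNO3, a log2 fold change of 2.75 ± 0.40 (adjusted p = 0.0006). For both BT genes the lowest KNO3 library was more than 3 times the highest KCl library. BT3, BT4 and BT5 were not called, and BT4 lay lower in KNO3 in every library (log2 fold change -0.42 ± 0.19, adjusted p = 0.759).

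MAPKKK13 (AT1G07150) and MAPKKK14 (AT2G30040), kinases at the top of a MAP kinase cascade, were the 2 genes called by edgeR in a clade of 9. MAPKKK13 was at 13.0, 7.81 and 18.6 CPM in KCl and at 64.3, 108.1 and 101.2 CPM in KNO3, a log2 fold change of 2.80 ± 0.31 (adjusted p = 1.07e-05). MAPKKK14 was at 23.0, 18.6 and 17.8 CPM in KCl and at 60.9, 84.3 and 79.0 CPM in KNO3, a log2 fold change of 1.92 ± 0.23 (adjusted p = 3.2e-05). The groups were separate in both. MAPKKK19 had 1.07 to 5.04 CPM in KCl and 7.55 to 16.6 CPM in KNO3 without overlap, and its log2 fold change of 2.4 ± 0.63 missed the threshold (adjusted p = 0.256). It was called by DESeq2 (adjusted p = 0.0278), and by edgeR with no filter beyond 1 count or without KCl library 1. The clade's median was -0.22, since MAPKKK15, MAPKKK16, MAPKKK17, MAPKKK18 and MAPKKK20 had negative, uncalled values.

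The remaining 5 of the 19 genes came from other functions. IPT3 (AT3G63110), a cytokinin synthesis gene known to respond to nitrate, was at 11.0, 16.7 and 9.43 CPM in KCl and at 39.8, 23.4 and 38.3 CPM in KNO3, a log2 fold change of 1.45 ± 0.29 (adjusted p = 0.0315). It was the 1 called gene of 15 cytokinin genes tested. Type-A response regulators, which report cytokinin signalling, were not called, and ARR7 alone among them had separate groups (log2 fold change 1.01 ± 0.38, adjusted p = 0.637). AT1G35560 (TCP23), a TCP transcription factor, was at 44.2, 24.5 and 38.8 CPM in KCl and at 86.9, 153.8 and 130.5 CPM in KNO3, a log2 fold change of 1.79 ± 0.23 (adjusted p = 0.000136). AT1G80440 (KMD1), an F-box protein known to target cytokinin response regulators, had 86.2 to 121.0 CPM in KCl and 200.9 to 302.3 CPM in KNO3, a log2 fold change of 1.27 ± 0.23 (adjusted p = 0.0108). AT1G77400, annotated as an extensin-like protein, had 6.48 to 14.1 CPM in KCl and 21.6 to 32.8 CPM in KNO3, a log2 fold change of 1.43 ± 0.29 (adjusted p = 0.0315). SERAT2;1, shown above, had 41.3 to 60.7 CPM in KCl and 88.4 to 130.6 CPM in KNO3, a log2 fold change of 1.07 ± 0.20 (adjusted p = 0.0184). None of the 5 genes overlapped between the salts. Of them, IPT3 missed the threshold without KCl library 1 or 3 or KNO3 library 1 or 3 (adjusted p between 0.131 and 0.203), and AT1G77400 without KCl library 1 or 2 or KNO3 library 2 or 3 (0.0782 to 0.271). AT1G80440 (0.0592 to 0.0845) and SERAT2;1 (0.0756 to 0.162) missed it without KCl library 2 or KNO3 library 2 or 3.

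Nitrate transporters, ammonium assimilation and most of the known signalling genes gave 0 calls in chl1-5 with edgeR and its filter on low counts. With no filter beyond 1 count, edgeR called NRT2.1 and NRT3.1, and also the gibberellin synthesis gene GA3OX1, and without KNO3 library 1 it called NRT3.1. Of 22 transport genes tested, 3 were under 0.05 before adjustment and the DESeq2 count was 1, for NRT3.1, the partner protein of the high-affinity NRT2 transporters. It had 106.2, 79.6 and 97.5 CPM in KCl and 146.9, 249.7 and 187.0 CPM in KNO3. Its groups did not overlap, and its log2 fold change of 1.04 ± 0.24 missed the threshold (adjusted p = 0.0957). NRT2.1, a high-affinity nitrate transporter, was at 87.2, 70.6 and 78.7 CPM in KCl and at 86.6, 235.9 and 148.7 CPM in KNO3, and KNO3 library 1 lay within the KCl range (log2 fold change 0.99 ± 0.33, adjusted p = 0.518). Its near copy NRT2.2 makes this locus uncertain where reads are not unique. Both NRT2.1 and NRT3.1 were called in wild type, with log2 fold changes of 1.82 and 2.04. NRT1.7, which loads nitrate into phloem, was at 62.6 to 104.9 CPM in KCl and 125.3 to 171.6 CPM in KNO3 without overlap (0.79 ± 0.22, adjusted p = 0.295).

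Of the 14 genes of ammonium assimilation, edgeR called none, 2 were under 0.05 before adjustment, and the 1 gene called by DESeq2 was GLN1;5, which had 0 counts in all KCl libraries and 0.879 to 1.71 CPM in KNO3. GLN2, the plastid glutamine synthetase, had a log2 fold change of 0.01 ± 0.19. The asparagine synthetase gene ASN2, called in wild type, had 33.3 to 50.7 CPM in KCl and 52.7 to 64.2 CPM in KNO3 (0.52 ± 0.21, adjusted p = 0.671). Among 20 tested genes of nitrate signalling, which include CIPK8, CIPK23, CPK10, CPK30, CPK32, TGA1 and TCP20, edgeR called 0, 3 were under 0.05 before adjustment and the DESeq2 count was 1, for HBI1. The median was 0.16. The bHLH factor HBI1 was at 4.8, 4.79 and 5.39 CPM in KCl and at 9.55, 13.8 and 16 CPM in KNO3, with separate groups, and its log2 fold change of 1.39 ± 0.35 missed the threshold (adjusted p = 0.184). NLP7 itself had a log2 fold change of 0.13 ± 0.27 and was at 64.0 to 99.9 CPM over the 6 libraries. NLP3, the NLP gene called in wild type (2.57), had 9.18 to 12.5 CPM in KCl and 11.0 to 26.4 CPM in KNO3 in chl1-5, with overlap (0.97 ± 0.40, adjusted p = 0.688). GA3OX1 had 11.0 to 27.4 CPM in KCl and 27.96 to 50.2 CPM in KNO3 (1.07 ± 0.38, adjusted p = 0.577), against a called 3.18 in wild type.

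The lists for phosphate starvation, sulfate assimilation, touch and rapid stress, the circadian clock, and haemoglobin and hypoxia gave 0 calls with edgeR and DESeq2 over 35 genes, of which 3 had an unadjusted p under 0.05, and medians between -0.15 and 0.24. The 21 marker genes also gave 0 calls with both tools, and 1 had an unadjusted p under 0.05. All 6 leaf markers had small positive values (median 0.16), the 8 root markers had a median of -0.07, the 4 vascular markers 0.28 and the 3 guard cell markers 0.74, the last from genes at 0 to 6.79 CPM. In whole seedlings, a change in the share of cells of a type and a change in RNA per cell cannot be told apart.

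**Figure D3:**
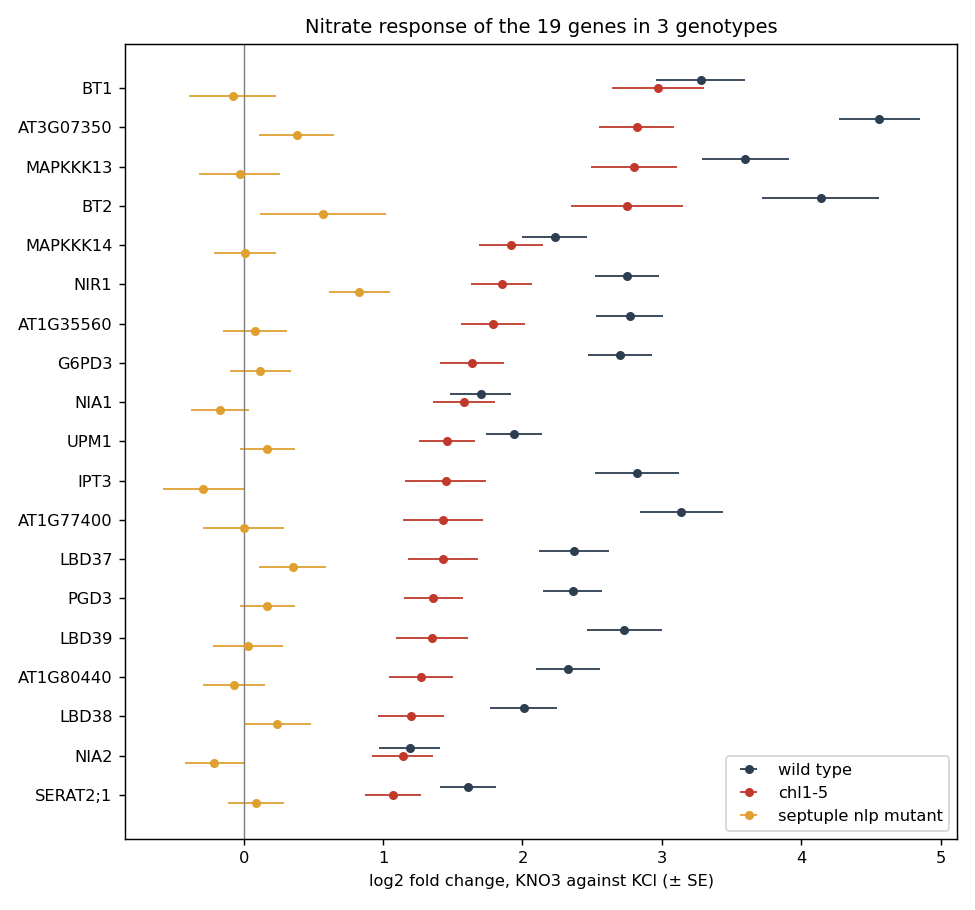
Log2 fold change (KNO3 against KCl, ± SE) of the 19 genes in wild type (dark blue), chl1-5 (red) and the septuple mutant (yellow), 3 libraries per salt and genotype. The chl1-5 value lies below the wild-type value in all 19 genes and above the septuple value in all 19. The genes were chosen by their calls in wild type and chl1-5, which favours higher values there than in the septuple mutant.

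How much of the wild-type response is seen in a mutant of NRT1.1 was addressed by comparing the genotypes. Of the 131 genes called higher in wild type, 122 had a positive log2 fold change in chl1-5. The chl1-5 libraries entered the choice of the 131 only through the filter, scaling and spread of the shared fit. The part of this in the values below was not tested. In 65 of the 131 genes (49.6%), all chl1-5 KNO3 libraries lay above all KCl libraries, against 3.94% of all genes. In 0 of the 131 genes they lay below. Their median log2 fold change was 0.67 in chl1-5 and 1.49 in wild type, and 19 were called in chl1-5. The wild-type value is raised by the choice of genes on those libraries. Without wild-type KNO3 library 1, 128 genes were called higher in wild type, 107 of them among the 131, and their medians were 0.6 in chl1-5 and 1.5 in wild type. Leaf markers moved with nitrate in wild type, where their summed level was 28700 to 44800 CPM in KCl and 53800 to 79700 CPM in KNO3, the list median was 0.9 and 2 of 6, CAB2 and LHCB2.1, were called higher. In chl1-5 the sums were 63900 to 83600 and 66300 to 86100 CPM, and the list median was 0.16. The difference between the genotypes was called for 0 of the 6 by edgeR (adjusted p between 0.49 and 0.676). Without these 6 markers, the 129 remaining genes had medians of 0.69 in chl1-5 and 1.5 in wild type, while the part of other leaf genes was not tested. The value was smaller in chl1-5 for 130 of the 131, the exception being AT2G22200 (3.62 in chl1-5, adjusted p = 0.115, and 3.39 in wild type).

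The genes that fell in wild type showed another pattern. Of the 23, whose median log2 fold change was -1.22 in wild type, 15 were negative in chl1-5, with a median of -0.07. With edgeR and DESeq2, 0 were called lower, and 2 were lower with an unadjusted p under 0.05. Without wild-type KNO3 library 1, 26 genes were called lower in wild type, 12 of them among the 23, and their median in chl1-5 was -0.15. In 4 of these 26 (15.4%) the chl1-5 KNO3 libraries lay below the KCl libraries, against 3.41% of all genes. In 2 (7.69%) they lay above, against 3.94% of all genes. In 2 of the 23 (8.7%), JAZ6 and EXLA1, the chl1-5 KNO3 libraries lay below the KCl libraries, against 3.41% of all genes. JAZ6, a repressor of jasmonate signalling, averaged 64.9 and 49.6 CPM in chl1-5 (log2 fold change -0.39, adjusted p = 0.828) and was at 58.7 to 88.5 and 35.4 to 43.5 CPM in wild type (-0.96). EXLA1, an expansin-like protein, averaged 45.3 and 31.6 CPM in chl1-5 (-0.52, adjusted p = 0.732) and 36.9 and 14.3 CPM in wild type (-1.37). NRT1.8, which removes nitrate from xylem sap, averaged 9.10 and 5.38 CPM in chl1-5 with overlap (-0.75, adjusted p = 0.854) and 21.4 and 5.92 CPM in wild type (-1.85).

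**Figure D4:**
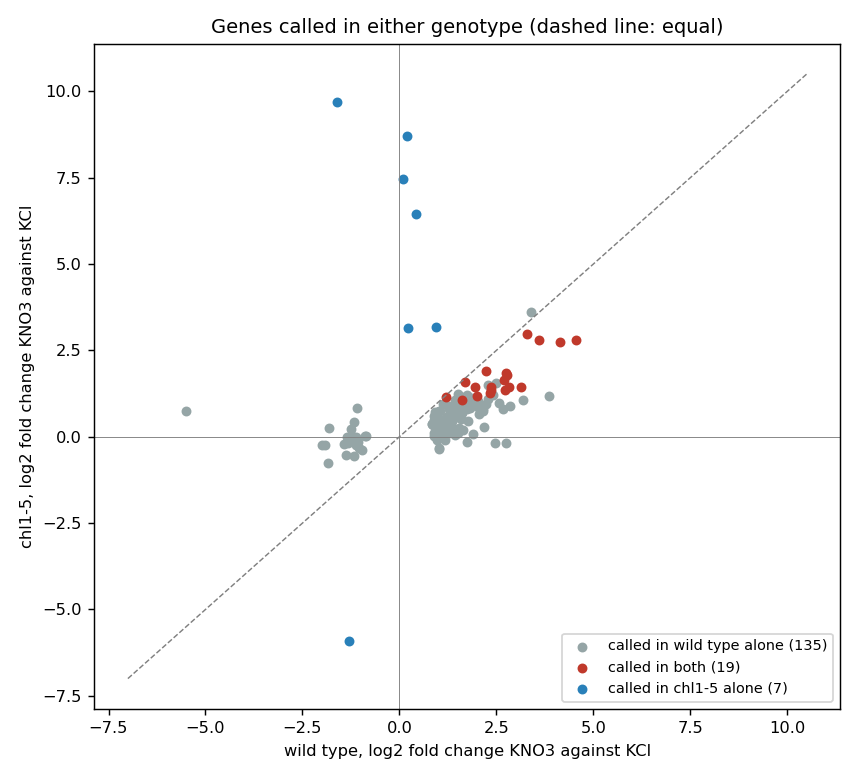
Log2 fold change (KNO3 against KCl) in chl1-5 against that in wild type for the genes called in either genotype, with the dashed line at equal values. Genes called in both (red, 19) lie below the line, genes called in wild type alone (grey, 135) lie nearer to 0 in chl1-5 apart from AT2G22200, and genes called in chl1-5 alone (blue, 7) lie between -1.61 and 0.94 on the wild-type axis.

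The difference of the responses itself was tested as an interaction. Between chl1-5 and wild type, 2 of 21229 genes were called (0.00942%), and none of the 19 shared genes was among them with edgeR (lowest adjusted p = 0.242, AT3G07350). Of the 19, 12 had an unadjusted p under 0.05 for this difference, and DESeq2 called 2, AT3G07350 and AT1G77400, both with a smaller response in chl1-5. The same libraries chose the 19 genes, so these counts only describe them, and the share of all genes under 0.05 was not counted. The differences ran from -1.74 ± 0.36 for AT3G07350, -1.71 ± 0.40 for AT1G77400, -1.39 ± 0.53 for BT2 and -1.39 ± 0.36 for LBD39 to -0.12 ± 0.30 for NIA1 and -0.05 ± 0.30 for NIA2. The nitrate reductase genes and BT1 (-0.31 ± 0.43) and MAPKKK14 (-0.32 ± 0.31) were thus the shared genes with the smallest differences, and NIR1 (-0.90 ± 0.30), PGD3 (-1.0 ± 0.29) and G6PD3 (-1.05 ± 0.31) were among those with larger ones. A test that misses its threshold does not show that the responses were alike. Of the 2 called genes, AT5G44380, annotated as a berberine bridge-type oxidoreductase, was at 24.8, 27.2 and 15.0 CPM in KCl and at 34.0, 50.8 and 34.9 CPM in KNO3 in chl1-5, and at 53.7 to 84.7 and 30.8 to 38.1 CPM in wild type. The KNO3 libraries lay above the KCl libraries in chl1-5 and below them in wild type, without overlap, with a difference of 1.93 ± 0.32 (adjusted p = 0.0213). The other gene, RNS3, is described below. The count of 2 was 21 without chl1-5 KCl library 2, 1 without wild-type KCl library 1, and 0 without wild-type KCl library 2, wild-type KNO3 library 1 or 3, chl1-5 KCl library 1 or 3 or chl1-5 KNO3 library 3. AT5G44380 also missed the threshold without chl1-5 KNO3 library 2, and over its 8 such libraries the adjusted p lay between 0.0603 and 0.126. DESeq2 called 35 genes in this interaction.

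The levels in each salt were also compared. In KCl, the mean of chl1-5 was higher than that of wild type for 16 of the 19 shared genes, with a median log2 difference of 0.51 against -0.11 for all genes. Leaf markers differed in the same direction, with all 6 called higher in chl1-5 in KCl and a median log2 difference of 1.29, and their part in the values of the 19 genes was not tested. Of these, 4 were called higher in chl1-5 in KCl, where 563 of all genes were (2.65%), and none of the 19 was called lower by edgeR or DESeq2 or had an unadjusted p under 0.05 in that direction (2.83% of all genes were called lower). They were AT1G77400 (log2 difference 1.22 ± 0.29, adjusted p = 0.0211), AT1G80440 (1.21 ± 0.23, adjusted p = 0.00649), AT3G07350 (1.14 ± 0.26, adjusted p = 0.0183) and LBD39 (0.87 ± 0.25, adjusted p = 0.0435). Only AT1G80440 of the 19 was called higher without wild-type KCl library 1 or 3 or chl1-5 KCl library 3, AT1G77400 and AT1G80440 were without chl1-5 KCl library 1, and 8 genes were without chl1-5 KCl library 2. With the replicate number as a block, 0 of the 19 were called higher, while DESeq2 called 7. In KNO3, the mean of chl1-5 was lower than that of wild type for 18 of the 19 genes, the exception being AT1G80440 with 260 against 236 CPM. The share of all genes lower in chl1-5 in KNO3 was not counted. The 19 were chosen partly by their rise in wild type, which favours low KCl and high KNO3 values in wild type. For AT3G07350, the wild-type libraries held 9.39 to 10.8 CPM in KCl and 206.9 to 284.3 CPM in KNO3, beyond the chl1-5 range given above on both sides. For NIR1, the means went from 335 to 1210 CPM in chl1-5 and from 207 to 1400 CPM in wild type.

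In the septuple mutant, edgeR and DESeq2 called none of the 26 genes, and 1 of them had an unadjusted p under 0.05. The interaction of the septuple mutant with chl1-5 was called for 7 of 21229 genes (0.033%), all with a lower response in the septuple mutant, and 6 of them are among the 19 shared genes. The 19 were chosen for a rise in the same chl1-5 libraries, which favours both this direction and this overlap. The difference was -3.05 ± 0.44 for BT1 (adjusted p = 0.00395), -2.83 ± 0.42 for MAPKKK13 (adjusted p = 0.00395) and -2.44 ± 0.38 for AT3G07350 (adjusted p = 0.00538). MAPKKK14, NIA1 and AT1G35560 were the other 3 of the 6. The 7 genes include RNS3, described below. BT1, MAPKKK13 and AT3G07350 stayed called under all 17 alternatives. The count was 3 without septuple KNO3 library 1, chl1-5 KCl library 3 or chl1-5 KNO3 library 3, 4 without septuple KCl library 1 or 2 or KNO3 library 2, and 5 to 9 without any 1 of the others. NIR1 differed from this pattern in having the highest response of the 19 genes in the septuple mutant (0.83 ± 0.22, edgeR unadjusted p = 0.000688, not called). There it was at 31.64 to 43.85 CPM in KCl and 54.42 to 79.5 CPM in KNO3, without overlap. Its interaction was -1.02 (adjusted p = 0.861).

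Whether the genes that rose in chl1-5 also change when NLP7 is expressed transiently was read from wild-type mesophyll protoplasts. NLP7 changed 12.4% of 16847 genes upwards and 9.76% downwards there, and of the 19 shared genes 15 were higher and 1, SERAT2;1, was lower (log2 fold change -0.32 ± 0.10, adjusted p = 0.0227). The median of the 19 was 1.68 against 0 for all genes. When all 24 protoplast libraries were fitted together, 9 of the 19 were called higher (7.69% of all genes were) and 0 lower, and BT1, BT2, G6PD3, PGD3, UPM1 and AT1G35560 were the 6 higher genes that lost their call. The median of the 19 was again 1.68, and that fit takes its spread from all protoplast groups. The main fit left the other groups out because some of their libraries were judged to go against their labels. AT3G07350 had 7.51 and 7.12 CPM in the control and 152.9 and 132.2 CPM with NLP7, a log2 fold change of 4.29 ± 0.12 (adjusted p = 2.93e-14). G6PD3 had 6.47 and 7.20 CPM in the control and 104.0 and 93.5 CPM with NLP7 (3.84 ± 0.12, adjusted p = 6.37e-14). NIR1 rose by 2.51 ± 0.10 and NIA1 by 1.47 ± 0.11. NIA2 (0.13 ± 0.09, adjusted p = 0.359), LBD39 (0.36 ± 0.14, adjusted p = 0.0758) and AT1G80440 (0.37 ± 0.16, adjusted p = 0.12) were the 3 shared genes that were not called with NLP7. IPT3 had 0 counts in both control libraries and 4.95 and 2.47 CPM with NLP7.

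The other 7 genes were called in chl1-5 and not in wild type, and most of them had few counts. In a fit of the 6 chl1-5 libraries alone, 0 of the 7 were called, with adjusted p from 0.168 for RNS3 to 1 for AT4G26060 and RLP37, and MAF5 did not pass the filter on low counts there. RNS3 (a secreted ribonuclease), NUDT22 (a Nudix hydrolase) and MAF5 (a MADS-box factor related to the flowering repressor FLC) had 0 counts in all 3 KCl libraries. RNS3 was at 1.21, 2.9 and 4.8 CPM in KNO3, NUDT22 at 1.51, 2.38 and 0.623 CPM, and MAF5 at 0.981, 0.190 and 0.696 CPM. Against 3 counts over the KCl group (0.0465 CPM), the KNO3 means of these genes are 64-fold, 32-fold and 13-fold higher. These ratios allow for counting error in KCl only, and leave out the spread between libraries. In wild type, RNS3 averaged 1.52 CPM in KCl and 0.496 CPM in KNO3, NUDT22 1.2 and 1.38 CPM, and MAF5 3.12 and 3.30 CPM, so the 0 counts in chl1-5 in KCl lay below the wild-type level, and all 3 genes were called lower there than in wild type. RNS3 is the other gene with a called interaction with wild type (fitted difference 11.31 ± 1.82, which depends on the prior count, adjusted p = 0.0213) and with the septuple mutant (-10.02 ± 1.82, adjusted p = 0.0435). It missed the threshold against wild type without wild-type KCl library 2, wild-type KNO3 library 1 or 3, chl1-5 KCl library 1 or 3 or chl1-5 KNO3 library 3 (adjusted p between 0.0528 and 0.0998), and against the septuple mutant without each library but chl1-5 KNO3 library 1 (0.0664 to 0.162). NUDT22 missed the threshold in chl1-5 without any 1 KCl library or KNO3 library 2 (0.0592 to 0.0856).

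NVL (AT1G08300) had 1 count over the KCl libraries and 126 over the KNO3 libraries, a ratio of CPM of 109 (exact 95% Poisson interval of the low count 19.5 to 4290). In wild type it averaged 2.15 CPM in KCl and 2.93 CPM in KNO3, against 1.65 CPM in the chl1-5 KNO3 libraries. RLP37 (AT3G23110), a receptor-like protein and the only gene called lower in chl1-5, had 64 counts over the KCl libraries and 1 over the KNO3 libraries, a ratio of 74.2 (13.3 to 2930). Its wild-type means were 1.49 CPM in KCl and 0.604 CPM in KNO3. Both intervals allow for counting error in the low count only, and leave out the spread between libraries. AT4G26060, annotated as a ribosomal protein of the L18ae family, had 0.0933, 0.799 and 0.340 CPM in KCl and 2.79, 3.71 and 4.69 CPM in KNO3, and wild-type means of 4.30 and 5.01 CPM. In KCl, NVL (adjusted p = 0.00522) and AT4G26060 (adjusted p = 0.00486) were called lower in chl1-5 than in wild type by edgeR. RLP37 was not (adjusted p = 0.721). These 3 genes had separate groups between the salts in chl1-5. ELP, next to the mutated locus, was called although its groups overlapped, with 1.31, 1.73 and 2.33 CPM in KCl and 1.77, 40.2 and 7.51 CPM in KNO3. Its value of 3.19 ± 0.61 (adjusted p = 0.0187) rests on KNO3 library 2, without which the adjusted p lay above the threshold, as it did without any 1 KCl library (0.0754 to 0.47 over the 4). NVL missed the threshold without KCl library 1 or 3 (0.0926 to 0.105), AT4G26060 without KCl library 1 or 3 or KNO3 library 2 or 3 (0.0532 to 0.105), and RLP37 without any 1 library but KCl library 2 (0.0766 to 0.258). Of the 6 of these 7 genes tested in protoplasts, 1 was called with NLP7, AT4G26060, which was lower.

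**Figure D5:**
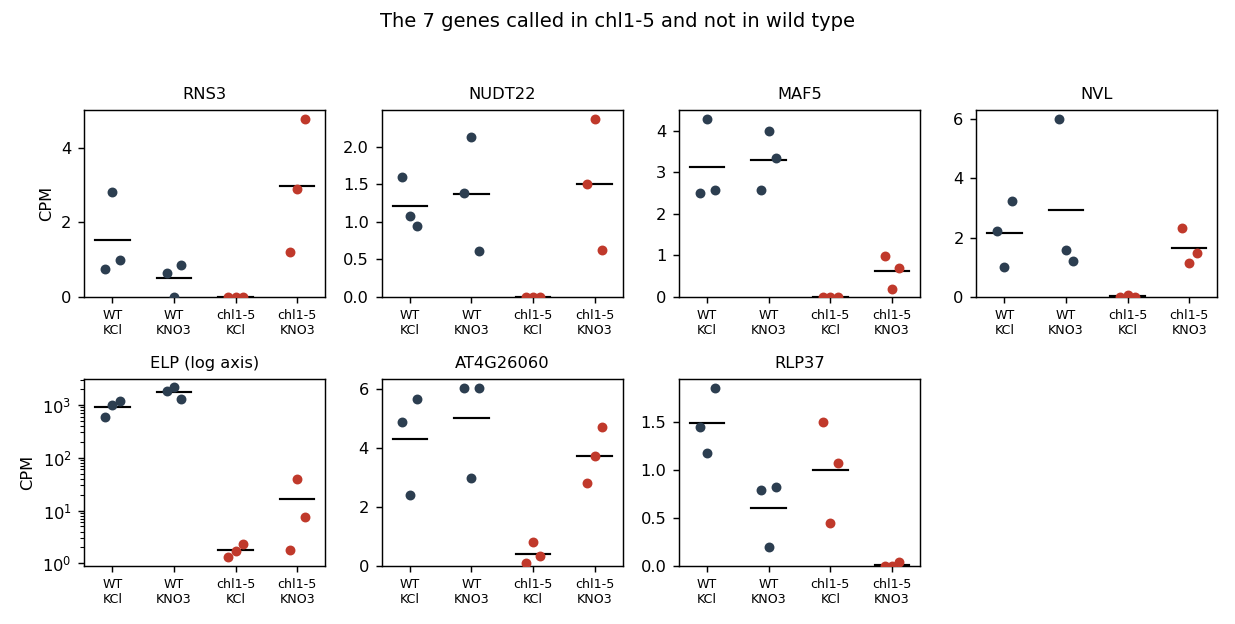
Normalised level (CPM) of the 7 genes called in chl1-5 and not in wild type, per library in wild type (dark blue) and chl1-5 (red), with bars at the means of 3. ELP is on a log axis and the others on linear axes from 0, where 4 genes lie at or near 0 in the chl1-5 KCl libraries and RLP37 in the KNO3 libraries.

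Such patterns of 0 counts were counted over all loci. In chl1-5, 12 loci had 0 counts in all KCl libraries and at least 10 counts in each KNO3 library, and 4 had the reverse. In wild type these numbers were 0 and 12, and in the septuple mutant 3 and 1. The part of this in the calls of RNS3, NUDT22 and MAF5 was not tested.

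Of the 10 genes with the lowest p among those lower with nitrate in chl1-5, RLP37 was called by edgeR and the other 9 were not (adjusted p from 0.056 to 0.204), while DESeq2 called all 9. Among those with more than 10 CPM in every library, XTH16, a cell wall xyloglucan enzyme, had 42.7, 35.6 and 29.9 CPM in KCl and 22.9, 15.7 and 16.5 CPM in KNO3 (log2 fold change -0.98 ± 0.24, adjusted p = 0.176). MSL9, a mechanosensitive ion channel, had 22.9, 28.5 and 19.6 CPM in KCl and 14.3, 12.0 and 12.0 CPM in KNO3 (-0.89 ± 0.22, adjusted p = 0.204). Both had separate groups.

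In the authors' deposited table for chl1-5, 33 genes had an adjusted p under 0.05, 32 higher and 1 lower with nitrate. Of these 33 genes in the authors' deposited table, 21 (63.6%) were called here, which is 80.8% of the 26. The 5 genes called here alone were MAF5, NVL, ELP, AT4G26060 and RLP37. The 12 called in the authors' deposited table alone include NRT3.1 (log2 fold change 1.04, adjusted p = 0.0024), G6PD2 (1.23, 0.0407) and MAPKKK19 (2.39, 0.0342), which had similar fold changes and missed the threshold here. They also include CBF1 (3.37, 0.00227) and CBF2 (1.55, 0.0138), transcription factors of the cold response, in the authors' deposited table.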

How the data were processed

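The authors deposited gene counts as whole numbers, 1 file per library with 37336 loci and 5 total lines, which were left out. Reads with no gene came to 0.83 to 4.23% and alignments that were not unique to 21.9 to 47.4% of the gene counts in chl1-5, and to 16.7% and 170% in wild-type KNO3 library 1. The tools, per the submitters' processing notes and in no stated order, were HTSeq 0.6.1, featureCounts, TopHat2 2.1.1 and FastQC 0.11.5, with the build TAIR10. No source used here gives the strand setting, so overlapping and antisense genes are uncertain. Symbols came from a TAIR10.1 gene table that holds 37051 of the loci. For chl1-5, the authors deposited a table of log2 fold changes and adjusted p-values, used only where it is named.

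The 18 seedling libraries were fitted together with edgeR 4.0.16 in R 4.3.3 (quasi-likelihood F test, TMM, filterByExpr by group), with 12 residual degrees of freedom and a biological coefficient of variation of 0.43, over 21229 genes. The 4 NLP7 protoplast libraries were fitted alone over 16847 genes. P-values were adjusted by Benjamini-Hochberg over all genes tested, and 0.05 was the threshold. SE is the log2 fold change divided by the root of F. CPM are TMM-scaled. The fit was also run on data simulated from its own fitted spread, which checks the code and not the calls in these libraries. Replicates were not duplicates (chi-square of 29.2 to 75 per gene). Alternatives were DESeq2 1.42.0, RLE size factors, no filter, no organellar loci, the 6 chl1-5 libraries alone, all protoplast libraries, each library left out, and the replicate number as a block.

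The genes named were all those called in chl1-5 or in an interaction, list members, NRT1.1 and its neighbours, the 10 genes of lowest p among those lower with nitrate, and, chosen after their values were seen, the exceptions among genes called in wild type. The members and lists were chosen with earlier results of these data known.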

Additional observations from a re-analysis of the deposited data

Results flagged for a closer look

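Responses that differed between genotypes by the edgeR interaction test are collected here with their values and no explanation. Between chl1-5 and wild type, the difference in log2 fold change was 11.31 for RNS3, whose value depends on the prior count since chl1-5 had 0 counts in KCl, and 1.93 for AT5G44380. Between the septuple mutant and chl1-5 it was -3.05 for BT1, -2.83 for MAPKKK13, -2.44 for AT3G07350, -1.91 for MAPKKK14 (adjusted p = 0.0122), -1.75 for NIA1 (adjusted p = 0.0171), -1.71 for AT1G35560 (adjusted p = 0.0493) and -10.02 for RNS3. MAPKKK14 missed the threshold without septuple KCl library 2 or KNO3 library 1 or chl1-5 KCl library 3 or KNO3 library 3 (adjusted p between 0.0559 and 0.0737). NIA1 missed it without septuple KCl library 1, septuple KNO3 library 1 or 2, any 1 chl1-5 KCl library or chl1-5 KNO3 library 3 (0.0559 to 0.114). AT1G35560 missed it without each library but chl1-5 KCl library 1 and chl1-5 KNO3 library 1 (0.0897 to 0.262).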

How the results depend on the processing

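No log2 fold change of the 26 genes changed sign under the 12 alternatives. BT1, AT3G07350, MAPKKK13, BT2, MAPKKK14, NIR1, AT1G35560, G6PD3, NIA1, UPM1 and PGD3, 11 of the 19 genes shared with wild type, stayed called under each, and so did MAF5 under the 11 that could test it. The chl1-5 count of 26 became 141 with DESeq2, 69 with no filter beyond 1 count and 15 with the 6 chl1-5 libraries alone (14 of them among the 26, all shared with wild type, and 0 of the 7 genes called in chl1-5 but not in wild type), and lay between 15 and 46 with 1 library left out. The chl1-5 minus wild type count of 2 became 35 with DESeq2 and 54 with no filter and lay between 0 and 21 with 1 library left out. The septuple minus chl1-5 count of 7 became 32 and 28, and lay between 3 and 9. Of the 26 genes, 10 were called between chl1-5 and wild type in KCl (4 higher in chl1-5), 7 to 14 with 1 library left out (1 to 8 higher). In protoplasts, 17 were called, and 10 when all protoplast libraries were fitted together. Leaving out wild-type KNO3 library 1 from the set of genes called in wild type, and leaving out leaf markers, were chosen after seeing the data. The causes were not tested. Whether the replicate numbers pair the libraries is not stated in the labels. Correlations of deviations were -0.04, -0.05 and 0.05 for the same number and -0.06 to 0.1 for different numbers, which does not settle this. With the replicate number as a block, 17 genes were called in chl1-5, 1 in the interaction with wild type and 3 of the 26 in KCl, 0 of them higher. Genes near 0 counts are limited by depth.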
